A study of Mus musculus with 4 samples.

Results

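The genes of the ID and E protein transcription factors, Id1, Id2, Id3, Tcf3, Tcf4 and Tcf12, were followed in mouse Th17 cells of 2 genotypes. They were taken by gene name, and each of the 6 names matched 1 of the 52636 genes in the table. The cells were naive T cells of the C57BL/6 strain, labelled PP2A WT or PP2A cKO, with 2 libraries of each genotype. PP2A is a serine/threonine phosphatase of several subunits; the labels name neither the subunit targeted nor a Cre driver. They call the libraries biological replicates without saying which mice or cultures they came from, and the p-values reflect the spread between these libraries, which may be partly technical. Both genotypes shared the same culture: 2 days with irradiated antigen presenting cells (3 to 1 T cell), with 2 µg/ml of the antibodies to CD3 and to CD28, with IL-6 at 20 ng/ml and TGF-β1 at 2 ng/ml, and with IFN-γ and IL-4 blocked by antibodies at 10 µg/ml. A restimulation of 4 h with ionomycin at 500 ng/ml and PMA at 50 ng/ml followed. The comparison of cKO with WT addresses which genes differ in Th17 cells labelled PP2A cKO, and here it is read for the ID and E protein genes.

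E proteins are basic helix-loop-helix factors that pair with each other or with tissue-specific partners and bind E-box sequences, written CANNTG. Tcf3 encodes the E2A proteins, Tcf12 encodes HEB, and Tcf4 encodes a further E protein that is not the Wnt pathway factor of the same nickname. ID proteins carry the helix-loop-helix but not the basic stretch that contacts DNA, so an E protein paired with an ID protein does not bind. In T cells the balance of both families is known to set lineage choice and the threshold for differentiation, and antigen receptor signals acting through ERK and EGR factors are known to induce Id3.

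The 4 libraries held between 18517487 and 20387948 reads assigned to genes. Markers of the labelled cell type were present. The 5 T cell genes summed to between 434 and 440 FPKM (fragments per kilobase of gene length, scaled to library size) in WT and between 503 and 512 FPKM in cKO. The 6 Th17 genes summed to between 3833 and 4174 FPKM in WT and between 2955 and 3058 FPKM in cKO, with Il17a between 479 and 757 FPKM. The CD8 T cell genes Cd8a and Cd8b1 together reached 7.61 to 8.24 FPKM in WT and 9.28 to 10.2 FPKM in cKO, most of it Cd8b1. The 5 myeloid markers summed to between 0.469 and 0.870 FPKM in WT and between 0.152 and 0.37 FPKM in cKO, with Cd14 the highest of them in every library. The part of these T cell, Th17, CD8 and myeloid marker differences in the results below was not tested. The 5 B cell markers summed to between 0.374 and 0.755 FPKM and the 3 NK cell markers to between 0.0124 and 0.0615, with Ncr1 and Klrb1c at 0 in all 4 libraries. Ppp2ca, the main PP2A catalytic gene, had 42.2 and 50.1 FPKM in WT and 41.8 and 34.5 FPKM in cKO (limma, adjusted p = 0.36), so gene totals do not check the genotype and the directions below rest on the library labels. The 2 cKO libraries differed from each other with the GC content of the transcripts (Spearman's rho = -0.529 across 10550 genes). These genes are not independent. The WT libraries differed less in this way (rho = 0.121). The trend also entered the tested contrast, where GC-rich genes tended to be lower in cKO (rho = -0.245 for the difference of the genotype means). It was present in cKO replicate 1 (rho = -0.384 for its difference from the mean of WT). In cKO replicate 2 there was little of it (rho = 0.0347). The GC trend is taken up below where it touches a gene.

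Promoter windows of 250 bases before and 50 after the start were found in RefSeq (GRCm38.p6) for 4 of the 6 genes, Id2, Id3, Tcf3 and Tcf12. They are shown for Id2 and Tcf3, the main ID gene and the main E protein gene of the WT cells, because an E-box there is where an E protein itself could bind; capitals mark matches to CANNTG and to GGCGCC, a sequence known from BMP-responsive elements. Bases inside annotated exons were left out. The first is on the minus strand of chr12:25096254-25096342 and the second on the minus strand of chr10:80433648-80433885, both written 5′ to 3′ toward the start that RefSeq gives. For Id2 and Id3 that start lies inside the annotated gene, whose span takes in a longer transcript, so the Id2 sequence is intronic to the transcript that begins at 25097140.
Id2: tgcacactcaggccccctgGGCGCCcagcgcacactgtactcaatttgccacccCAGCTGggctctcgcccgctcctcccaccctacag
Tcf3: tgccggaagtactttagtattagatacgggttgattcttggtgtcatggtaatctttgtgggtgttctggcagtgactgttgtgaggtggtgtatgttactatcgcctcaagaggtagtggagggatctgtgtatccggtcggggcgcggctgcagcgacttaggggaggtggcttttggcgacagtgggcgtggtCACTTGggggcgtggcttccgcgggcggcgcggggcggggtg

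Id2 held 1 CANNTG match, CAGCTG, at position -196 from the start, and 1 GGCGCC match at -231. Tcf3 held 1 CANNTG match, CACTTG, at -54. Each of the 3 Tcf12 windows held at least 1 CANNTG, the first of them CAGCTG at -240. The Id3 window held neither motif. Its first base lies inside an annotated exon, and the window is not shown. Both strands were searched and the 2 motifs do not overlap each other in these windows. Of all 32851 windows, 72.31% held a CANNTG and 11.87% a GGCGCC, so an E-box in a window of this length is common. The EGR consensus GCGTGGGCG was in none of the 4 genes' windows and in 0.61% of all windows.

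Of the 3 ID genes, Id3 rose in cKO and Id2 and Id1 were higher in both cKO libraries without passing the test. Id3 (ENSMUSG00000007872; GRCm38 chromosome 4, 136143497 to 136145755, plus strand) had 18.0 and 17.4 FPKM in WT and 32.6 and 29.1 FPKM in cKO. Both cKO values were well above both WT values, and the WT values nearly coincided. The mean went from 17.7 ± 0.415 to 30.9 ± 2.44 FPKM (SD, n = 2), 1.74-fold higher. The log2 fold change was 0.77 ± 0.10 (SE) on log2(FPKM + 1) and passed the threshold of 0.05 (limma, adjusted p = 0.0492). Among the 10562 genes tested, 2.05% had a higher log2 fold change. The FPKM values of Id3 rest on 631 and 596 reads in WT and 1186 and 1012 in cKO.

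The size of the Id3 difference was stable, from 0.69 to 0.86 on the log2 scale over 15 other settings, but its call was near the threshold and held in 8 of them. It was lost with a pseudocount of 0.1 (adjusted p = 0.053), with quantile scaling (adjusted p = 0.0536), with no variance trend (adjusted p = 0.0552) and with no filter (adjusted p = 0.168). It was also lost without WT replicate 1 (adjusted p = 0.216) and without WT replicate 2 (adjusted p = 0.317), when the spread comes from the cKO pair. It held with limma voom on the reads recovered from FPKM (adjusted p = 0.0158). That fit called 5.87% of tested genes (2.52% higher and 3.35% lower). The 8 settings include the fits without cKO replicate 1 (log2 fold change 0.69) and without cKO replicate 2 (0.84). There the spread comes from the WT pair. In bulk RNA a change in the number of cells that express a gene and a change in RNA per cell cannot be told apart.

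Id2 (ENSMUSG00000020644; chromosome 12, 25093799 to 25097140, minus strand), the main ID gene of effector T cells, had 21.5 and 25.1 FPKM in WT and 31.8 and 27.2 FPKM in cKO. The groups did not overlap, but the gap between WT replicate 2 and cKO replicate 2 was smaller than the difference inside either genotype. Id2 averaged 23.3 ± 2.55 FPKM in WT and 29.5 ± 3.25 FPKM in cKO (SD, n = 2). Its log2 fold change was 0.32 ± 0.13 (SE; limma, adjusted p = 0.257), and it passed in 0 of 15 other settings (adjusted p from 0.0537 to 0.882).

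Id1 (ENSMUSG00000042745; chromosome 2, 152736251 to 152737410, plus strand), a classic target of BMP signalling, was low, with 1.94 and 1.22 FPKM in WT and 2.93 and 2.76 FPKM in cKO. Both cKO values were above both WT values. These values rest on 44 and 27 reads in WT and 69 and 62 in cKO; the exact 95% Poisson intervals, which cover counting error alone, were 1.41 to 2.60 and 0.803 to 1.77 FPKM in WT and 2.28 to 3.71 and 2.11 to 3.53 FPKM in cKO, so WT replicate 1 and the cKO libraries overlap at this depth. The log2 fold change was 0.59 ± 0.16 (SE; limma, adjusted p = 0.143) and ran from 0.39 without WT replicate 2 (adjusted p = 0.634) to 0.84 with a pseudocount of 0.1 (adjusted p = 0.16). Id4, the remaining family member, had 1 read in cKO replicate 2 and 0 in the other libraries.

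**Figure D1:**
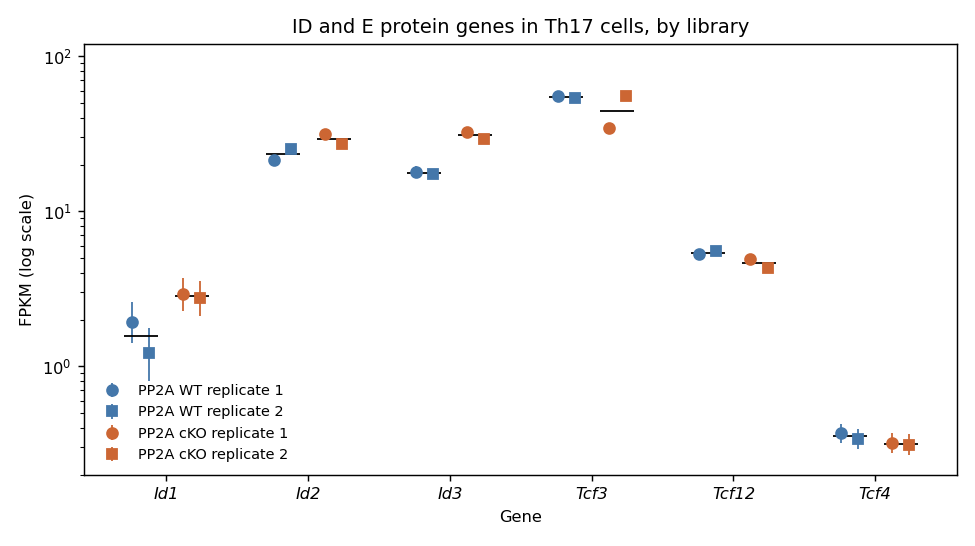
FPKM (y axis, log scale) of the 6 genes in the 4 libraries, coloured by genotype, with a bar at each mean of 2 and vertical lines for exact 95% Poisson counting intervals, which are hidden by the points for highly expressed genes. Id3 lies at 18.0 and 17.4 in WT and 32.6 and 29.1 in cKO, while Tcf3 lies near 54 in 3 libraries and at 34.3 in cKO replicate 1.

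Neither of the tested E protein genes, Tcf3 and Tcf12, was called with all 4 libraries, at an adjusted p, at an unadjusted p under 0.05 or with voom. Tcf3 (ENSMUSG00000020167; chromosome 10, 80409514 to 80433647, minus strand) had the highest FPKM of the 6 genes in every library, with 55.2 and 53.5 FPKM in WT and 34.3 and 55.1 FPKM in cKO. A single library stood apart: cKO replicate 2 equalled the WT libraries and cKO replicate 1 was lower. The means were 54.3 ± 1.18 and 44.7 ± 14.7 FPKM (SD, n = 2), and the log2 fold change was -0.31 ± 0.23 (SE; limma, adjusted p = 0.471). Without cKO replicate 1 the difference was 0.02, and without cKO replicate 2 it was -0.65. Each of these fits leaves 1 cKO library, with the spread taken from the WT pair.

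The Tcf3 transcript is GC-rich, at 61.0% in its longest form, and falls in the tenth of tested genes with the highest GC content. The median gene of that group had a log2 difference of -0.32 between cKO replicate 1 and cKO replicate 2, while that of Tcf3 was -0.67; 10.5% of the 1055 genes of the group differed by more in that direction. With each library centred within groups of GC content, the Tcf3 log2 fold change was -0.17 (adjusted p = 0.461). The part of GC content in the low value of cKO replicate 1 was not tested. Id3 has a GC content of 55.6% and went against this trend, being higher in cKO replicate 1 than in cKO replicate 2 by 0.16 where the median gene of its group had a difference of -0.24; with the GC centring its log2 fold change was 0.86 (adjusted p = 0.0445).

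**Figure D2:**
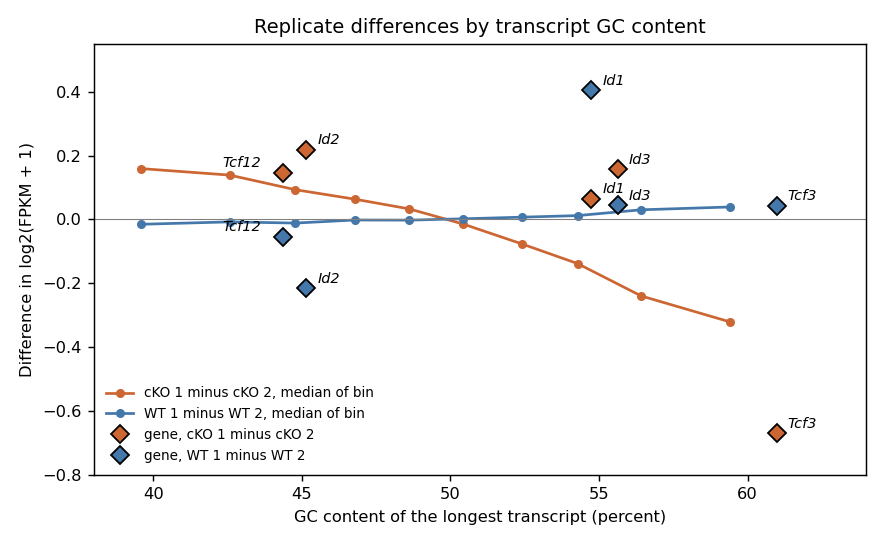
Difference in log2(FPKM + 1) between the 2 cKO and between the 2 WT libraries (y axis) against the GC content of the longest transcript (x axis, percent), with lines through the medians of 10 groups of 1055 genes and diamonds for the 5 tested ID and E protein genes. The cKO line runs from 0.16 to -0.32, with Tcf3 at -0.67 and Id3 at 0.16, while the WT line stays between -0.02 and 0.04.

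Tcf12 (ENSMUSG00000032228; chromosome 9, 71842688 to 72111871, minus strand) had 5.29 and 5.52 FPKM in WT and 4.90 and 4.33 FPKM in cKO. Both cKO values were below both WT values by a small margin. The log2 fold change was -0.19 ± 0.10 (SE; limma, adjusted p = 0.344), with the same sign in 15 of 15 other settings and no call among them. Tcf4 (ENSMUSG00000053477; chromosome 18, 69343356 to 69689079, plus strand), the E protein gene of B cells and plasmacytoid dendritic cells, had 0.371 and 0.340 FPKM in WT and 0.320 and 0.313 FPKM in cKO, from 166 to 199 reads. It lay under the filter of a mean of 1 FPKM and was not tested; with no filter its log2 fold change was -0.04 (adjusted p = 0.674). Of 4 plasmacytoid dendritic cell markers, Siglech, Cox6a2 and Klk1 were at 0 in all libraries, and the list summed to between 0.0178 and 0.110 FPKM in WT and between 0.0172 and 0.0899 FPKM in cKO.

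In all, 5 of the 6 genes passed the filter and 1 of these, Id3, was called, against 1.07% of the 10562 genes tested (0.814% higher, 86 genes, and 0.256% lower, 27 genes). With the GC centring, 263 genes were called higher and 226 lower, a more even split. At an unadjusted p under 0.05, 2 of the 5 passed, Id1 and Id3, against 19.8% of genes tested. All 3 ID genes lay above WT in both cKO libraries, as did 27.2% of all tested genes, and Tcf12 lay below, as did 28.7%, so that 55.9% of tested genes had groups that did not overlap in either direction. No exon of the 6 genes overlapped an exon of another gene in GENCODE M21. The totals do not separate the splice forms of Tcf3, Tcf4 or Tcf12.

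**Figure D3:**
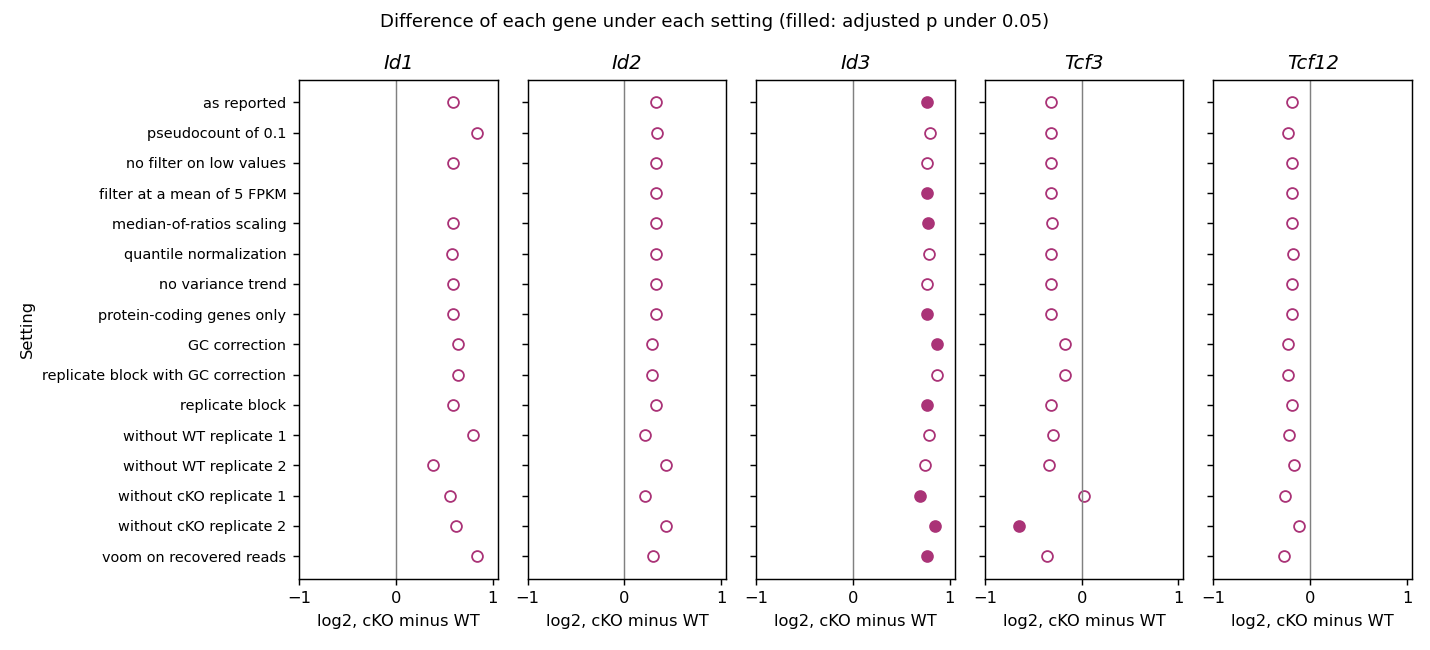
Log2 difference, cKO minus WT (x axis), of the 5 tested genes under the reported fit and each other setting (y axis), filled where the adjusted p is under 0.05. Id3 stays between 0.69 and 0.86 with some settings filled and others open, and Tcf3 moves from -0.65 to 0.02 with the cKO library that is left out.

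FPKM is per length, which lets levels be set side by side, but the length is that of the merged exons of every annotated transcript. It is 27382 bases for Tcf4 and 15529 bases for Tcf12, against 1160 bases for Id1, and a cell that uses a short transcript of a long gene gets a low FPKM. Id1 stood above Tcf4 in FPKM although it had 27 to 69 reads and Tcf4 had 166 to 199, so that order depends on the lengths. In WT the order was Tcf3, Id2, Id3, Tcf12, Id1 and Tcf4, and no neighbours in that order overlapped between the 2 libraries. In cKO the order of the means was Tcf3, Id3, Id2, Tcf12, Id1 and Tcf4; Id3 and Id2 overlapped, and Tcf3 at 34.3 FPKM in cKO replicate 1 was close to Id3 at 32.6 FPKM. The ratio of Id3 to Id2 was 0.836 and 0.693 in WT and 1.03 and 1.07 in cKO. By FPKM, Id2 was thus the higher ID gene in both WT libraries and Id3 was slightly higher in both cKO libraries. The 95% Poisson intervals of Id2 and Id3 overlapped in both cKO libraries. In reads Id2 stood above Id3 in every library, with 1573 and 1284 against 1186 and 1012 in cKO. The cKO order of Id3 and Id2 therefore also depends on the lengths, 1791 bases for Id3 and 2438 bases for Id2.

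The FPKM of the 3 ID genes summed to 41.5 and 43.8 in WT and to 67.3 and 59.0 in cKO, and that of the 3 E protein genes to 60.8 and 59.3 in WT and to 39.5 and 59.8 in cKO. The ratio of the ID sum to the E protein sum was 0.682 and 0.738 in WT and 1.70 and 0.988 in cKO. Every library of WT had more E protein than ID transcript by this measure, cKO replicate 2 had nearly equal sums, and cKO replicate 1 had more ID transcript. In reads, Tcf3, Tcf12 and Tcf4 had 2811, 1547 and 178 in cKO replicate 1, against 1573, 1186 and 69 for Id2, Id3 and Id1. The order of the 2 sums in that library therefore also depends on the lengths. The high ratio of cKO replicate 1 includes its low Tcf3, while that of cKO replicate 2 comes with an E protein sum at the WT level. With Id2 alone over Tcf3 and Tcf12, the ratio was 0.356 and 0.426 in WT and 0.811 and 0.457 in cKO, so the gap between WT replicate 2 and cKO replicate 2 was small. These ratios are of transcripts, are given as a description and were not tested.

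**Figure D4:**
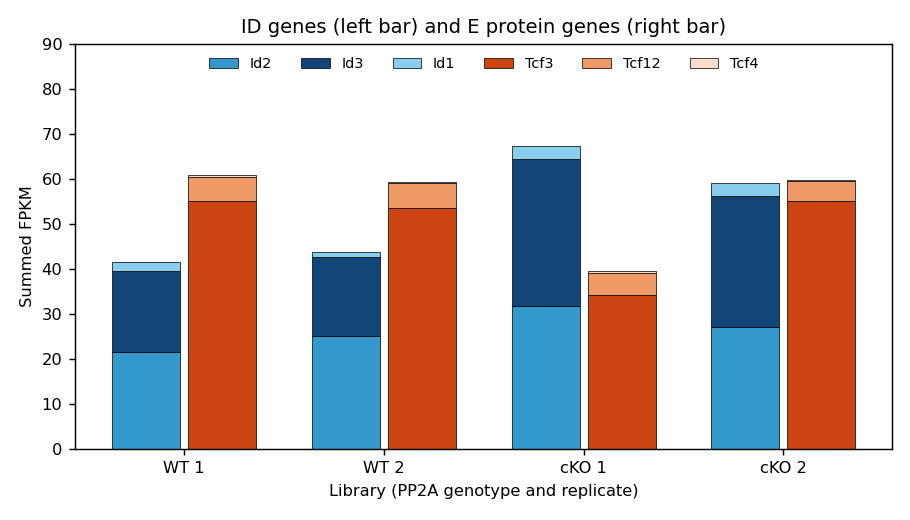
Summed FPKM (y axis, from 0) of the ID genes (left bar, blue) and the E protein genes (right bar, orange) in each library (x axis). The ID bars reach 41.5 and 43.8 in WT and 67.3 and 59.0 in cKO, and the E protein bar of cKO replicate 1, at 39.5, is lower than the other 3.

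The genes whose pattern over the 4 libraries was most like that of each member were found by the Euclidean distance between centred log2(FPKM + 1) values, among the other genes averaging 5 FPKM or more, without predicted genes named Gm or Rik (6535 for each of Id2, Id3, Tcf3 and Tcf12). With 4 libraries this describes these libraries alone. Nearest to Id3 were H2-T22, a class I-like histocompatibility gene, at a distance of 0.0242 and with 4.76, 4.54, 8.996 and 7.94 FPKM in WT 1, WT 2, cKO 1 and cKO 2, and then the GTPase gene Gimap5 (0.0916) and Glipr2 (0.0944). Nearest to Tcf3 were the tubulin gene Tuba1c (0.0246), with 195, 189, 125 and 196 FPKM in the same order, the deacetylase gene Hdac10 (0.0275) and Tmem259 (0.0341). These 3 have transcripts with 56.3%, 56.3% and 61.7% GC. Nearest to Id2 were Chmp5 (0.0345), Dars (0.0353) and Gt(ROSA)26Sor (0.0364), to Id1 the small nucleolar RNA gene Snora31 (0.0630), the integrin gene Itgav (0.111) and Sla (0.115), and to Tcf12 the SUMO-activating enzyme gene Sae1 (0.0191), Acsl3 (0.0198) and Crybg1 (0.0241).

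Genes that act with the ID and E proteins were read from the same fit, where the median log2 fold change over all tested genes was -0.00 and 1.07% were called. With no filter on low values limma called 0 of 21807 genes, these lists included (1543 higher and 1469 lower at an unadjusted p under 0.05). Of 6 bHLH partners of E proteins 3 were tested, with a median of 0.38, and 1 rose and none fell. Msc, which encodes the bHLH repressor musculin, had 2.23 and 1.75 FPKM in WT and 4.64 and 5.02 FPKM in cKO, a log2 fold change of 0.97 ± 0.12 (SE; limma, adjusted p = 0.0456). Both cKO values exceeded both WT values. The call was lost with a pseudocount of 0.1 (limma, adjusted p = 0.0524). It was also lost without WT replicate 1 (log2 fold change 1.08), without WT replicate 2 (0.85) and without cKO replicate 1 (1.02). Without cKO replicate 2 the log2 fold change was 0.92.

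The 8 genes of the ERK and EGR route to Id3 were all tested, with a median of 0.19, and 2 rose and none fell. The zinc finger gene Egr3 had 7.27 and 5.52 FPKM in WT and 22.1 and 27.7 FPKM in cKO (log2 fold change 1.81 ± 0.17, limma, adjusted p = 0.028), and Egr1 had 16.0 and 16.1 FPKM in WT and 33.4 and 42.5 FPKM in cKO (1.18 ± 0.14, adjusted p = 0.0391). Without cKO replicate 2, Egr1 and Egr3 also passed, but 1390 genes were then called higher and 1614 lower over the whole table. Egr2 was named after its values were seen. It had 37.1 and 30.5 FPKM in WT and 58.8 and 73.7 FPKM in cKO (0.95 ± 0.16, limma, adjusted p = 0.0661). Egr2 passed with voom (adjusted p = 0.0163) and missed the threshold with a pseudocount of 0.1 (limma, adjusted p = 0.0709). It also missed it without WT replicate 1 (log2 fold change 1.08) and without WT replicate 2 (0.81). Egr2 passed without cKO replicate 1 (1.11) and without cKO replicate 2 (0.79). For these 3 genes cKO replicate 2 was above cKO replicate 1, the opposite order to Id3. Egr1 missed the threshold without WT replicate 1 (adjusted p = 0.1) and without WT replicate 2 (adjusted p = 0.128), while Egr3 passed without any 1 of the 4 libraries (adjusted p from 0.0132 to 0.048).

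None of the BMP and TGF-β receptors and SMADs, the route known to control Id1 and Id3 in many cells, was called with all 4 libraries, by limma or by voom. Of 16 genes 10 were tested, with a median of -0.04, and 2 were lower at an unadjusted p under 0.05. Of all tested genes 19.8% passed that threshold in either direction. In both cKO libraries 5 lay below WT and 2 above, against 28.7% and 27.2% of all tested genes. Smad3, a receptor-activated SMAD of the TGF-β pathway, had the lowest p. It had 4.55 and 4.85 FPKM in WT and 3.05 and 3.59 FPKM in cKO (log2 fold change -0.40 ± 0.11, limma, adjusted p = 0.134). Its log2 fold change was -0.49 without cKO replicate 2 and -0.31 without cKO replicate 1. Smad9 had no reads in any library and Smad6, an inhibitor induced by BMP signals in other cells, had 1 read in cKO replicate 1.

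Of 9 E protein cofactors 6 were tested and none was called with all 4 libraries, by limma or by voom. Their median was -0.08, and 2 were lower at an unadjusted p under 0.05. Of all tested genes 19.8% passed that unadjusted threshold in either direction. The acetyltransferase gene Kat2a had the lowest p, with 27.9 and 28.1 FPKM in WT and 19.2 and 24.2 FPKM in cKO. Its log2 fold change was -0.36 ± 0.13 (limma, adjusted p = 0.227). Without cKO replicate 2 it was -0.52 and without cKO replicate 1 it was -0.20. The Kat2a transcript has 57.4% GC, and with the GC centring its log2 fold change was -0.26 (limma, adjusted p = 0.1185). All 5 genes of ID and E protein turnover were tested and none was called in the reported limma fit, with a median of -0.24. At an unadjusted p under 0.05 2 were lower, beside the same 19.8% of all tested genes. With voom 1 was lower, beside 3.35% of all tested genes. Fzr1, an activator of the ubiquitin ligase that marks ID proteins for degradation, had 45.1 and 44.0 FPKM in WT and 22.5 and 32.4 FPKM in cKO (-0.70 ± 0.18, adjusted p = 0.129). The Fzr1 transcript has 59.9% GC. With the GC centring Fzr1 was at -0.56 and passed (limma, adjusted p = 0.0465), and with voom at -0.76 it passed too (adjusted p = 0.0449). Its log2 fold change was -0.95 without cKO replicate 2 and -0.45 without cKO replicate 1. Usp1, the deubiquitinase that stabilises ID proteins, was named after its values were seen. It had 60.9 and 60.7 FPKM in WT and 42.4 and 49.4 FPKM in cKO (-0.40 ± 0.11, limma, adjusted p = 0.147). The log2 fold change of Usp1 was -0.51 without cKO replicate 2 and -0.30 without cKO replicate 1.

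Of 16 genes known as E protein targets in lymphocytes 10 were tested, with a median of 0.02, and 1 rose and none fell; 2 were higher with voom and with the GC centring. The gene that rose was Cdkn1a, the gene of p21, a brake on the cell cycle that p53 also induces, with 52.5 and 44.7 FPKM in WT and 155 and 138 FPKM in cKO (log2 fold change 1.57 ± 0.13, limma, adjusted p = 0.0242). It missed the threshold without WT replicate 2 (adjusted p = 0.0697). Rag2 and Ptcra, targets known from early thymocytes, had no reads in the 4 libraries.

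**Figure D5:**
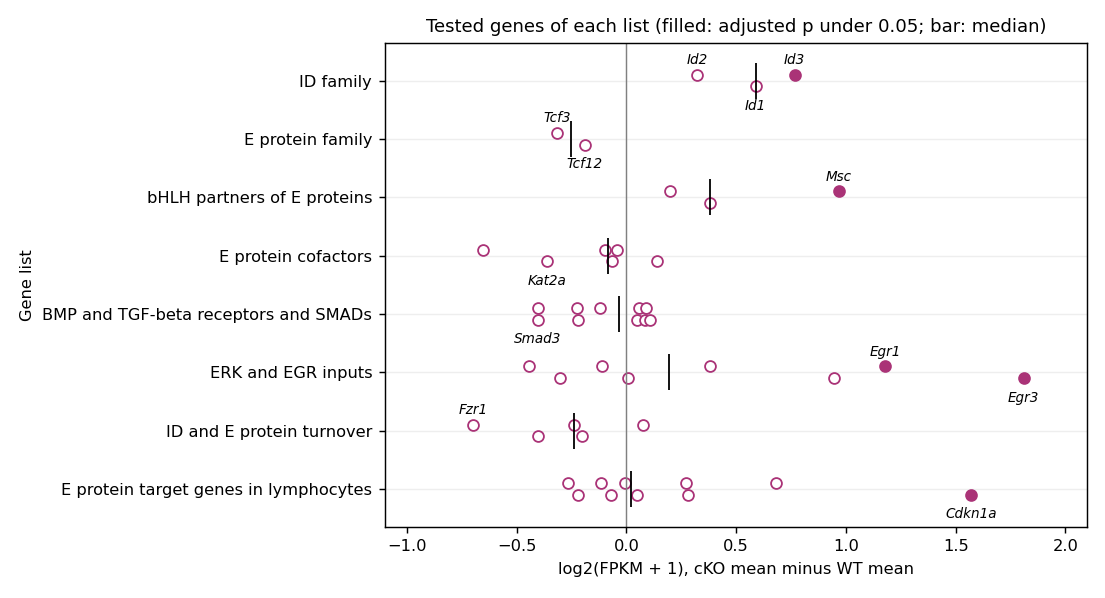
Log2(FPKM + 1), cKO mean minus WT mean (x axis), of each tested gene of 8 lists (y axis), filled where the adjusted p is under 0.05, with a bar at the median of each list. Id3, Msc, Egr1, Egr3 and Cdkn1a are filled, and the BMP and TGF-β list has its median at -0.04 with no filled point.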

How the data were processed

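The sources used here do not give the aligner, annotation release, strand setting or FPKM tool. The authors deposited FPKM per gene and gene length in bases for 4 libraries; per the submitters' processing notes, featureCounts 1.5.0-p3 and GRCm38 were used. The reads behind each value were recovered from FPKM and gene length, and 100% of values came out whole within 0.05 read. On log2(FPKM + 1), a pseudocount of 1, the 10562 genes averaging 1 FPKM or more were tested with limma 3.58.1 (R 4.3.3) with a variance trend, Benjamini-Hochberg adjustment over all genes at 0.05, two-sided, no block. Such fold changes understate changes of low genes. With 2 libraries against 2 an exact permutation test cannot go under p = 0.333. GC content came from the longest GENCODE M21 transcript; 99.56% of gene IDs were found there. The labels give no batch. Members, lists and tests were chosen with earlier results of these data known. Named genes were the 6 members and Id4, up to 3 called genes per list and direction or else the lowest p, and the 3 nearest patterns per member. Alternatives were a pseudocount of 0.1, no filter or one of 5 FPKM, median-of-ratios and quantile scaling, no variance trend, protein-coding genes only, GC correction, a replicate block, both together, each library left out, and voom. A quasi-likelihood count test, also planned, was not run because the deposited unit is FPKM.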

Additional observations from a re-analysis of the deposited data

How the results depend on the processing

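Genes higher and lower over the whole table numbered 86 and 27 as reported, 0 and 0 with no filter (limma over 21807 genes; 1543 and 1469 at an unadjusted p under 0.05), 259 and 241 with protein-coding genes, 263 and 226 with the GC correction, 154 and 73 with a replicate block, 266 and 354 with voom, 49 to 1390 and 6 to 1614 with 1 library left out (highest without cKO replicate 2, lowest without WT replicate 2), and 15 lower with a pseudocount of 0.1 and 11 lower with the replicate block and GC correction together. Id3 stayed higher in 15 of 15 alternatives; it missed the threshold with a pseudocount of 0.1 (0.80, adjusted p = 0.053), no filter (0.77, 0.168), quantile scaling (0.78, 0.0536), no variance trend (0.77, 0.0552), the replicate block with GC correction (0.86, 0.066), and over the omissions ran from 0.69 to 0.84 (adjusted p from 0.0116 to 0.317). ID and E protein genes called higher thus numbered 1 or 0, 0 in those settings and 0 to 1 over the omissions, and lower 0, or 1 without cKO replicate 2 (Tcf3, -0.65). Tcf3 reversed to 0.0208 (adjusted p = 0.851) without cKO replicate 1. Id1, Id2 and Tcf12 kept their direction without a call in all alternatives that tested them; Id1 falls under the 5 FPKM filter. With 1 library left out the lone library is assumed to vary like the other genotype. WT and cKO libraries share numbers in their titles, but the deviations of same-numbered libraries correlated at -0.0930 over 10562 genes, so the numbers were not taken as pairs; the replicate block alone kept the Id3 call (adjusted p = 0.0477). A quasi-likelihood count test was not run, since the deposited unit is FPKM. The cause of the changes was not tested. The count of reads limits Id1.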
